A study of Mus musculus with 288 samples.

Results

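The cytosolic ribosome of the mouse is built from ribosomal RNA and a fixed set of proteins, whose genes are named Rpl for the large subunit and Rps for the small subunit. Their mRNAs are among the most abundant of the cell, and most begin at a C followed by a run of pyrimidines, the 5′ terminal oligopyrimidine (TOP) tract, through which their translation follows the kinase complex mTORC1. Because ribosomes need their proteins in equal numbers, these genes are known for levels that move together, and some of them (Rpl13a, Rps18, Rplp0) are used as reference genes for quantitative PCR. Here the genes were chosen by symbol alone: Rpl or Rps and a number with an optional a, x or l, the stalk genes Rplp0, Rplp1 and Rplp2, and Rpsa. The rule took 83 of 35904 genes in the expression tables, of which 48 belong to the large subunit, 3 to the stalk and 32 to the small subunit. Among the 83 are 7 second copies (Rpl3l, Rpl6l, Rpl10l, Rpl32l, Rpl39l, Rps4l and Rps27l), of which Rpl6l, Rpl32l and Rps4l are annotated as processed pseudogenes. The rule used no measured value, though it was set with earlier results of these data known.

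RNA was measured by poly(A) sequencing in 288 libraries from lung, heart, liver, kidney, muscle and cerebellum of male wild-type C57BL/6J mice aged 8 weeks. One group breathed room air throughout (normoxia) and the other received intermittent hypoxia (IH), repeated falls of oxygen during the inactive phase, for 7 days. All mice were then kept in constant darkness under normoxia, and tissues were taken on the second day at 8 clock times 3 hours apart, from 3 mice per time and treatment, which gives 24 libraries per tissue and treatment. Hypoxia had therefore ended before any tissue was collected. Values are TPM, a relative transcript level corrected for length and scaled to a fixed total, and the deposited tables hold no counts, so the reads behind a single value are not known from them.

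All 6 tissues carried their own marker genes, with 8 of 8 present at a mean of at least 1 TPM in each. Some libraries stood apart. A liver IH library (13:30, replicate 2) held 9231 TPM of heart markers against at most 71.8 in the other liver IH libraries, a heart normoxia library (7:30, replicate 3) held 3014 TPM of lymphocyte markers against 1930 TPM in the next, and cerebellum libraries held muscle markers at 1837 to 18672 TPM. These same 2 libraries of liver and heart, and a cerebellum IH library (1:30, replicate 3), correlated least with the rest of their tissue, and counts without them are given below. In bulk tissue fewer cells of a type and less RNA per cell cannot be told apart.

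To show what the genes share in sequence, the annotated starts were read from RefSeq (GRCm38.p6), which held 61 of the 83 genes; 22 were not matched. A C at the annotated start followed by at least 4 C or T stood in 14 of the 61 (23.0%), against 2.96% of 26964 other genes and 0 of 69 mitochondrial ribosomal protein genes. Where the tract could start within 5 bases of the annotated start, the shares were 47.5% and 21.1%, and 24.6% for the mitochondrial group. CCGGAAG, the core bound by ETS factors, was found on either strand of the 300-base window (250 bases before and 50 after the start) in 41.0% of the genes, 9.86% of other genes and 37.7% of the mitochondrial group, whereas TATAAA was in 11.5% and 15.7% of genes and other genes. The windows below run from 10 bases before to 15 bases from the start, with the pyrimidine tract in capitals. They are shown for the stalk gene Rplp2, for Rpl38 and Rps18, and for Rps6 (whose protein is the classical substrate of S6 kinase). Rps27 is shown beside its copy Rps27l and the muscle copy Rpl3l, which carry no tract at the annotated starts shown. The Rps27l window does meet the looser rule, with a tract that starts within 5 bases of its annotated start.
Rplp2 (chr7:141447641-141447665, + strand): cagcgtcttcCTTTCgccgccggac
Rpl38 (chr11:114668570-114668594, + strand): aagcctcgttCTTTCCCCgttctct
Rps18 (chr17:33955651-33955675, - strand): cacttccgctCTCTCTTCCacagga
Rps6 (chr4:86857353-86857377, - strand): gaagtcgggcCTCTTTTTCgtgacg
Rps27 (chr3:90213634-90213658, - strand): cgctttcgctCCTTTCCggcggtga
Rps27l (chr9:66946076-66946100, + strand): cctccccgccgcctctatcccggaa
Rpl3l (chr17:24727816-24727840, + strand): ttctagctctgtcatttgacctctg

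In normoxia the 83 genes together took 3.85% ± 0.40 (SD, n = 24) of all TPM in liver, 5.65% ± 0.90 in muscle, 5.88% ± 1.08 in kidney, 6.65% ± 1.72 in heart, 8.69% ± 0.69 in lung and 9.10% ± 1.26 in cerebellum. Levels of single genes were high. Of the genes passing the filter of a mean of 1 TPM, between 74 (liver) and 76 (heart, muscle) had a mean of at least 100 TPM. The median gene stood at 450 TPM in liver and 973 TPM in lung. Rpl13a, of the large subunit, was highest in lung (4129 TPM), heart (2839 TPM) and liver (1782 TPM). Rpl41, which encodes the smallest ribosomal protein, was highest in kidney (2868 TPM) and cerebellum (5500 TPM), and Rplp1 of the stalk in muscle (2120 TPM). The rank order was much alike between tissues, with Spearman's rho over 79 genes from 0.75 (muscle and cerebellum) to 0.96 (heart and muscle), given as a description.

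The lowest genes were second copies, with one exception. Rpl10l, Rpl32l and Rpl6l were below the filter in all 6 tissues and Rpl39l in all but muscle (2.95 TPM ± 1.04, SD, n = 24, against 388 for Rpl39). Heart had as its lowest tested gene Rpl12 (18.8 TPM), a core protein near the stalk. Rpl12 (12.7 to 23.3 TPM over the 6 tissues) and Rpl5 (medians of 12.7 to 59.4 TPM), which carries 5S ribosomal RNA, lay far below the other core proteins, while Rpl11, the partner of Rpl5, had 595 to 1252 TPM. Whether reads of ribosomal protein genes were split with processed copies elsewhere in the genome was not tested, so the levels of genes with such copies are uncertain. Summed rows of pseudogenes named after the genes came to 7.08% (heart) to 10.1% (kidney) of the combined TPM. For 9 genes (Rpl10, Rpl10a, Rpl15, Rpl27, Rpl28, Rpl31, Rpl36a, Rps16 and Rps23) the pseudogene rows held at least 20% in every tissue, reaching 87.9% for Rps23 and 81.4% for Rpl10, both in cerebellum. Named pseudogene rows held 3.27% or less for Rpl5 and 1.23% or less for Rpl12 in lung and cerebellum.

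The clearest difference between tissues was in Rpl3l, the copy of Rpl3 known from striated muscle. Rpl3l had 341, 461 and 532 TPM (lowest, median and highest of 24 libraries) in muscle and 75.0, 166 and 224 TPM in heart, with no overlap. It had 0.572, 6.75 and 42.4 TPM in cerebellum, 2.34, 3.82 and 5.30 TPM in kidney, 0.349, 0.735 and 1.97 TPM in lung, and 0.0421, 0.211 and 0.690 TPM in liver. Every muscle and heart library lay above every library of the other tissues, while cerebellum overlapped kidney, lung and liver, and lung overlapped liver. The log2 difference of muscle from the mean of the other 5 tissues was 6.57 ± 0.14 (SE) with an adjusted p of 6.14e-86 by limma, and that of heart was 5.12 ± 0.14. In the cerebellum the highest Rpl3l value, 42.4 TPM, was in the library with the most muscle markers (18672 TPM, 19:30, replicate 3). After IH, the highest values of liver (47.0 TPM, against at most 0.488 elsewhere) and cerebellum (57.6 TPM) were in the libraries with the most heart markers. The part of these transcripts in the Rpl3l values was not tested.

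Rpl3 itself, the core protein beside the peptidyl transferase center, went the other way in muscle. It had 128, 213 and 247 TPM there, against 582, 750 and 834 TPM in lung and 645, 823 and 1008 TPM in cerebellum, and the log2 difference of muscle from the other tissues was -1.09 ± 0.05 (adjusted p = 1.41e-48, limma). Rpl3l made up 68.6% (median; 62.1 to 76.6%) of the sum of both genes in muscle, 37.4% in heart and 0.856% or less in the median library of the others. The IH medians were 71.1% in muscle and 37.5% in heart.

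**Figure D1:**
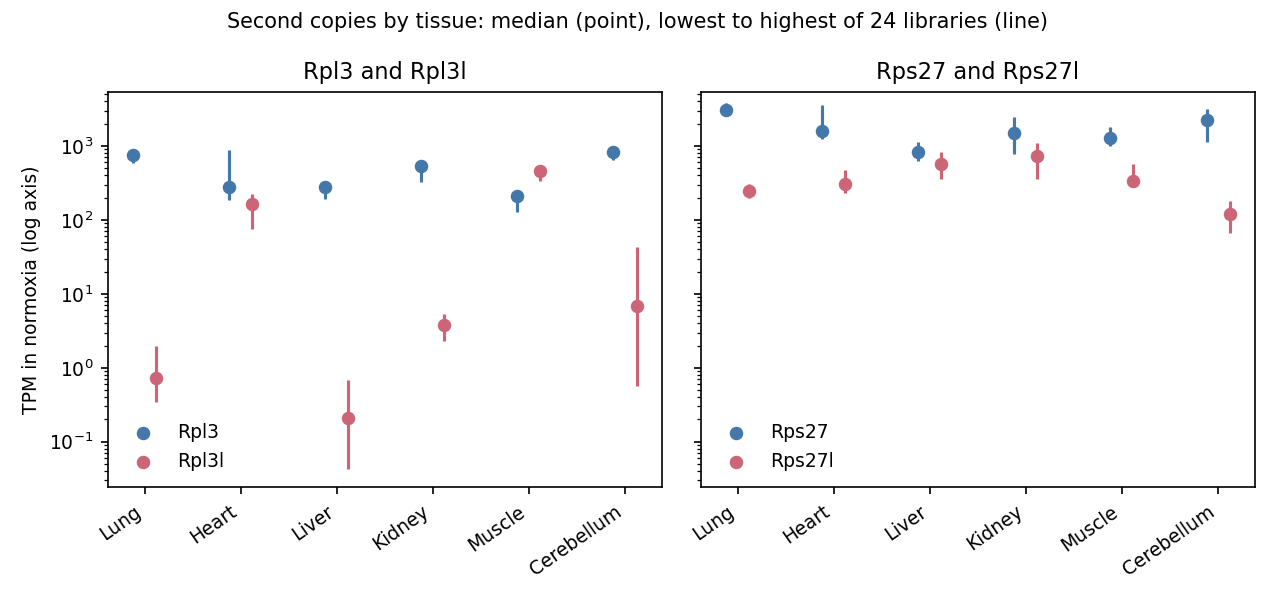
Level in TPM (log axis) of Rpl3 and Rpl3l (left) and Rps27 and Rps27l (right) in 6 tissues in normoxia; points are medians and lines run from the lowest to the highest of 24 libraries. Rpl3l passed Rpl3 in muscle only (medians 461 and 213 TPM), and Rps27l came nearest to Rps27 in liver (571 and 832 TPM).

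Rps27l, a p53-responsive copy of Rps27, followed another pattern. It had 361, 730 and 1092 TPM in kidney and 358, 571 and 826 TPM in liver, ranges that overlapped. Muscle (median 340 TPM), heart (305 TPM) and lung (247 TPM) came next with overlapping ranges, and cerebellum was lowest at 66.2, 119 and 182 TPM, below every library of the other tissues. Differences from the other 5 tissues were 1.82 ± 0.08 in liver, 1.20 ± 0.08 in kidney, -1.43 ± 0.08 in lung and -2.36 ± 0.08 in cerebellum on the log2 scale (SE; adjusted p at most 5.13e-29, limma). The copy held 41.3% of the TPM of the pair in the median liver library, 32.1% in kidney and 5.03% in cerebellum. Rps4l, a pseudogene row of Rps4x, was 1.17 ± 0.07 higher in liver, where it held 9.26% of the pair. These differences are after scaling. With TPM as deposited, computed for these genes after their values had been seen, the difference of Rps4l in liver was 0.29, with a mean of 35.8 TPM there against 52.8 TPM in lung and 49.9 TPM in cerebellum. Those of Rps27l were then 0.93 in liver, 1.28 in kidney, -0.51 in lung and -1.81 in cerebellum, so that kidney and not liver stood highest, while Rpl3l kept 6.42 in muscle and 4.58 in heart.

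Genes that met both an adjusted p of 0.05 and a 2-fold difference from the mean of the other tissues were few next to all genes. In heart Rpl3l, Rplp0, Rps2 and Rps29 were higher and 0 lower (background 11.1% and 12.9% of 15492 genes), and in lung 0 were higher and Rpl3l, Rps2 and Rps27l lower (17.7% and 19.6%). Liver had Rps27l and Rps4l higher and Rpl3l lower (16.7% and 25.5%), kidney had Rps27l higher and Rpl3l lower (14.8% and 18.5%), and muscle had Rpl3l higher and Rpl3 lower (12.6% and 15%). In cerebellum Rpl38 and Rps24 were higher and 7 genes lower (19.8% and 24.1%), the latter including Rpl10, Rplp0 and Rps2. Rplp0, the scaffold of the stalk, stood at 260, 350 and 447 TPM in cerebellum, below all heart libraries (699 to 1756 TPM), and had a median of 473 TPM in liver. Its partner Rplp1 did not share this, with medians of 3037 TPM in cerebellum and 1252 TPM in liver. Rpl38, whose loss is known to alter translation of Hox mRNAs, had 1330, 3007 and 4547 TPM in cerebellum and a median of 1094 TPM in lung. The counts depended on the scaling. With TPM as deposited, not rescaled, 20 genes differed 2-fold in liver, 0 of them higher, and 14 in cerebellum, 11 of them higher, against 1 in heart.

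Apart from tissue, the genes rose and fell together from library to library. After the treatment means were removed, the mean correlation between pairs of genes over 48 libraries was 0.86 in lung, 0.84 in heart, 0.86 in liver, 0.75 in kidney, 0.87 in muscle and 0.65 in cerebellum, whereas over all pairs of tested genes it was between 0.00523 and 0.0167. The first principal component held 90.2% of the variance of the genes in lung and 68.7% in cerebellum. The points share library and scaling, so these are descriptions. In each tissue the gene least correlated with the mean of the group was Rps4l, Rpl10 or Rpl3l. Rps4l had r = -0.69 with the mean of the group in lung and -0.18 in muscle, Rpl10 had -0.30 in cerebellum and -0.16 in kidney, and Rpl3l had 0.24 in lung and -0.10 in liver. Of genes outside the group, the 10 with the highest median r over the tissues were Gm7536 (0.98), Gm10275 (0.98), Rack1 (0.97), Rps3a1 (0.97), Rps16-ps2 (0.97), Fau (0.96), Gm15500 (0.96), Rps23-ps1 (0.96), Pfdn5 (0.96) and Vti1b (0.96). Rps3a1 and Rack1 are components of the small subunit outside the naming rule, Fau encodes a fusion that yields Rps30, and Pfdn5 a subunit of the prefoldin chaperone.

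The main comparison of the study was IH against normoxia over all time points. It was tested by limma on log2(TPM + 0.5) after scaling each library by the median ratio, with adjustment over all genes. In heart most genes fell: 0 were higher and 73 lower of 79 tested (92.4%), against a background of 28% higher and 17.3% lower of 12779 genes. In lung 0 were higher, against 28.9% of all genes, and 38 were lower (48.1%), close to the 41.5% of all genes. Liver had 26 higher (32.9%) and 0 lower, with a background of 10.9% and 13.3%. Kidney had 11 higher (13.9%) and 0 lower, with 8.25% and 11.5%. Cerebellum had 5 higher (6.33%) and 0 lower, with 9.76% and 5.24%. In muscle 0 of 80 passed (5.48% and 4.89% of all genes did), and 5 had an unadjusted p of at most 0.05. Median log2 changes of the group were -0.39 in heart, -0.23 in lung, 0.29 in liver, 0.13 in kidney, 0.11 in cerebellum and -0.03 in muscle, where those of all genes were 0.04, -0.08, -0.01, -0.01, -0.01 and 0.00. Changes were small. A 1.5-fold change with an adjusted p of at most 0.05 was met by 1 gene that fell in lung (4.39% of all genes fell as far), 3 that fell in heart (1.85%), 3 that rose in liver (1.1%), 1 that rose in cerebellum (1.48%), 0 that rose in kidney (0.411%) and 0 either way in muscle (0.374%).

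**Figure D2:**
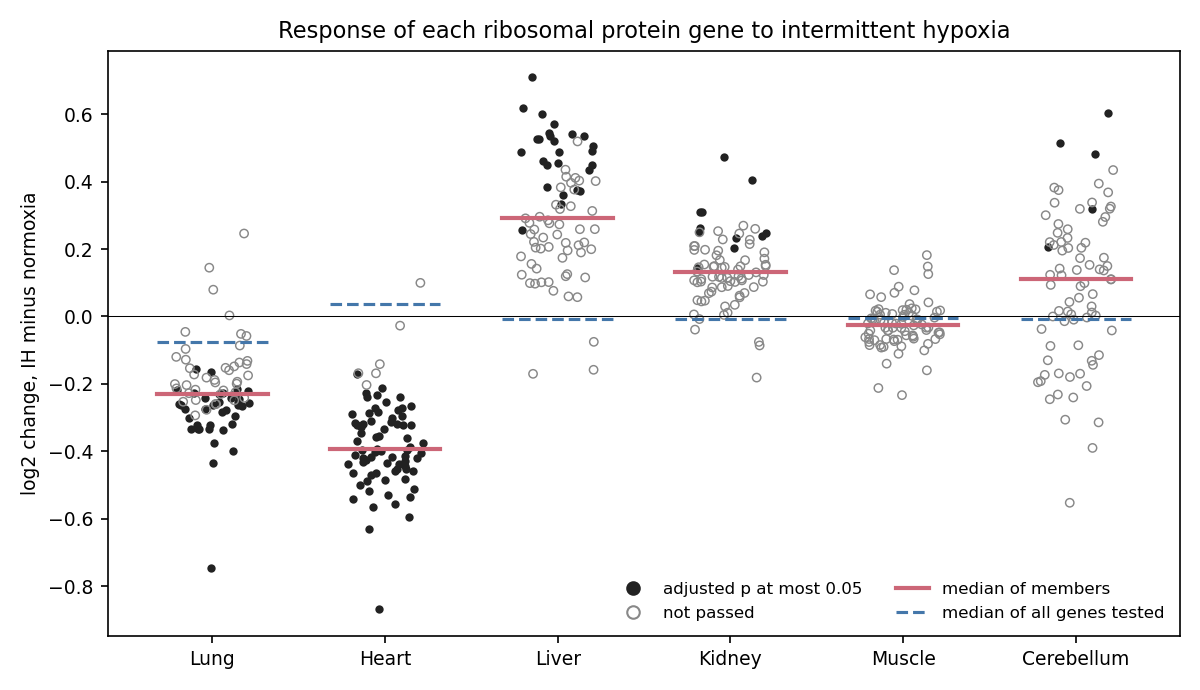
Each point is the log2 change, IH minus normoxia, of 1 ribosomal protein gene in a tissue (79 genes, 80 in muscle); filled points have an adjusted p of at most 0.05, red lines are medians of the group and dashed blue lines medians of all genes tested. Heart points lie almost all below 0 (median -0.39) and liver points almost all above (median 0.29).

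By subunit the counts were as follows, with no test of a difference between subunits. In heart 40 of 44 genes of the large subunit, 30 of 32 of the small subunit and 3 of 3 of the stalk were lower, with medians of -0.39, -0.38 and -0.40. In liver 13 of 44 (median 0.25) and 13 of 32 (0.37) were higher, and 0 of 3 of the stalk (0.12). The lung had 21 of 44, 14 of 32 and 3 of 3 lower. Genes called in heart included 35 of the 38 called in lung (92.1% of the lung genes and 47.9% of the heart genes), 24 of the 26 of liver (92.3%) and all 11 of kidney. Since heart called 73 genes, such shares follow from its size. All 24 shared by heart and liver were lower in heart and higher in liver. This follows from the counts, since 0 genes were higher in heart and 0 lower in liver. The overlap of calls over all genes is not given. Rpl37, Rpl3l and Rpl39l passed in no tissue.

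In the heart, the largest falls were in Rpl5 and in Rps12, a small-subunit protein at the beak. Rpl5 had 13.0, 22.1 and 47.2 TPM in normoxia and 8.05, 13.4 and 18.5 TPM after IH, and was lower at 8 of 8 time points by mean TPM. The ranges overlapped from 13.0 to 18.5 TPM. Its log2 change was -0.87 ± 0.10 (SE, adjusted p = 1.59e-09, limma). Rps12 had 891, 1339 and 2907 TPM in normoxia and 540, 977 and 1342 TPM after IH, with a log2 change of -0.63 ± 0.11 (adjusted p = 1.68e-05). Here too all 8 time points were lower, and the upper end of the IH range lay at the normoxia median. Rpl3l did not pass (-0.03 ± 0.14 in log2 change, adjusted p = 0.862), nor did Rps4l (0.10, adjusted p = 0.353), Rpl3, Rpl27a, Rpl37 and Rps3. The share of TPM in the group went from a mean of 6.65% to 5.48%. Without the normoxia library rich in lymphocyte markers, in which the share was 12.96%, 71 genes were called and the median was -0.37. Without replicate 1 there were 34 calls (median -0.25). Such counts under changed settings, here and for the tissues below, come without the share of all genes called. They do not show a change particular to these genes. The number of genes detected moved with treatment, from a mean of 25124 in normoxia to 21447 after IH. Its ranges did not overlap, with 22988 to 28331 in normoxia and 20316 to 22793 after IH. With that number as a term in the fit, 0 genes passed and the median log2 change was 0.09. Because the ranges are apart, this fit cannot separate the number from treatment, and no conclusion is drawn from it.

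In the liver Rps24 and Rps3 of the small subunit rose most. Rps24 had 488, 645 and 891 TPM in normoxia and 383, 946 and 2922 TPM after IH, a log2 change of 0.71 ± 0.19 (adjusted p = 0.00427, limma), and was higher at 8 of 8 time points. Rps3, which lines the mRNA entry channel, had 196, 317 and 406 TPM in normoxia and 185, 490 and 771 TPM after IH, with 0.62 ± 0.13 (adjusted p = 0.000504). The IH ranges were wider than those of normoxia and enclosed them. Without the IH library that held heart transcripts the count rose to 40. With replicate 1 or 2 left out it was 0, with replicate 3 left out 62. Erythroid markers, 5 of 6 of which were present at 1 TPM, summed to 1841 to 3949 TPM in normoxia and 1260 to 29993 TPM after IH in liver. After IH 4 of the 5 were higher and 1 lower. Also higher were 7 of 7 tested heart markers (median log2 change 1.36), 4 of 4 kidney markers (2.35), 2 of 2 neutrophil markers (0.70) and 3 of 6 macrophage markers (0.29), whereas 2 of 8 liver markers were lower (median -0.45). Heart markers summed to 6.11 to 82.9 TPM in normoxia and 35.2 to 9231 TPM after IH, kidney markers to 1.03 to 122 and 42.0 to 450.1 TPM, and liver markers to 58486 to 97456 and 1419 to 74695 TPM. The part of these markers in the result was not tested.

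Kidney and cerebellum had few calls, all of them rises. In kidney 13.9% of the genes were higher against 8.25% of all genes. In cerebellum 6.33% were higher, below the 9.76% of all genes. Erythroid markers (6 of 6 present) summed to 2805 to 6214 TPM in kidney in normoxia and 3597 to 17435 TPM after IH, and their part was not tested. In kidney Rpl41 had 1768, 2942 and 4969 TPM in normoxia and 2307, 3374 and 8204 TPM after IH (log2 change 0.47 ± 0.13, adjusted p = 0.00597, limma). Rps12, lower in heart, was 0.40 ± 0.12 higher in kidney (adjusted p = 0.0156), from a median of 1133 to 1295 TPM. The 11 kidney calls became 0 without replicate 2 (median -0.05), 4 without replicate 1 and 48 without replicate 3, 4 with TPM as deposited and 2 with detected genes as a term. In cerebellum Rps14, a small-subunit protein of the decoding platform, had 864, 1849 and 2870 TPM in normoxia and 1090, 2808 and 6446 TPM after IH (log2 change 0.60 ± 0.18, adjusted p = 0.0175), and Rpl12 had medians of 18.9 and 29.0 TPM (0.51 ± 0.13, adjusted p = 0.00393). Ranges overlapped in all of these. The other cerebellum calls included Rps19, mutated in Diamond-Blackfan anemia (0.48 ± 0.11). Leaving out the cerebellum library of lowest correlation gave 9 calls, and leaving out replicate 1 or 2 gave 0.

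In lung Rps4l fell most, by 0.75 ± 0.09 on the log2 scale (adjusted p = 2.52e-09, limma), from 38.9, 53.0 and 64.6 TPM to 20.6, 42.9 and 55.0 TPM, and it was lower at 8 of 8 time points. Rplp2 had 896, 1061 and 1949 TPM in normoxia and 722, 963 and 1565 TPM after IH, with -0.44 ± 0.11 (adjusted p = 0.000538), and was lower at 5 of 8 time points. All 3 stalk genes passed in lung. The sign of the median log2 change depended on the scaling. After scaling it was -0.23 (-0.08 for all genes tested). With TPM as deposited it was 0.07 (0.21 for all genes tested), with 8 genes called, of which 7 were higher. Under both settings the median of the group lay below that of all genes. The share of TPM in the group rose in its mean, from 8.69% to 9.83%, but fell in its median, from 8.498% to 8.038%. The SD of the share was 0.69 in normoxia and 3.80 after IH. The number of genes detected rose from a mean of 22694 to 25455 in lung, and with it as a term 76 genes were called, 0 of them higher, with a median of -0.93. Without replicate 3 there were 7 calls and the median was 0.05, and without replicate 1 there were 74. Cell type markers moved in lung as well: 8 of 8 lung markers (median log2 change -0.72), 8 of 10 lymphocyte markers (-0.58), 6 of 6 erythroid markers (-0.74) and 3 of 6 macrophage markers (-0.14) were lower, and 4 of 8 heart markers (0.36), 2 of 7 muscle markers (0.74) and 2 of 5 neutrophil markers (0.30) higher. Lung markers summed to 136654 to 264624 TPM in normoxia and 34973 to 205904 TPM after IH, lymphocyte markers to 243 to 938 and 134 to 638 TPM, erythroid markers to 37233 to 165175 and 25749 to 174320 TPM, and heart markers to 232 to 915 and 344 to 1075 TPM. Their part in the lung result was not tested.

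The reference genes gave values of both signs. Rpl13a fell by 0.54 ± 0.10 on the log2 scale in heart and rose by 0.54 ± 0.18 in liver and 0.31 ± 0.11 in kidney, all with an adjusted p of at most 0.0432 by limma. Rplp0 fell in lung (-0.25 ± 0.05) and heart (-0.27 ± 0.09) and rose in cerebellum (0.21 ± 0.07). Rps18 passed in heart only (-0.44 ± 0.09), and in muscle these 3 genes had changes between -0.07 and 0.02. Rps6 fell in lung (-0.23 ± 0.10) and heart (-0.32 ± 0.09) and rose in liver (0.52 ± 0.15), and Rpsa, the laminin receptor homolog of the small subunit, fell in lung and heart (-0.21 and -0.23). Rpl11, which with Rpl5 binds Mdm2, passed in heart only (-0.23 ± 0.08). In all, 14 genes passed in at least 3 tissues, each of them in heart. Since heart called 73 of 79 genes, their passing there follows largely from its size. The share of all genes that passed in at least 3 tissues is not given.

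Values differed by replicate number in several tissues. The labels number the 3 mice at each time point and do not say whether a number stands for a batch or a day. In lung the share of TPM after IH averaged 12.1% in replicate 1, 10.9% in replicate 2 and 6.45% in replicate 3, against 8.15%, 8.85% and 9.07% in normoxia. The 8 IH libraries of replicate 3 spanned a narrow range (SD 0.25) where those of replicates 1 and 2 were wide (SD 3.28 and 4.03). Within replicate numbers the median log2 change of the group was 0.30 (75 of 79 genes above 0), -0.16 (9 of 79) and -0.78 (2 of 79) in lung. Those of liver were 0.61, 0.37 and -0.10, those of kidney 0.14, 0.50 and -0.22, and those of muscle 0.28, -0.15 and -0.22. Heart was below 0 in each number (-0.60, -0.20 and -0.31). Cerebellum had 0.12, -0.04 and 0.20. So the pooled direction held within all 3 numbers in heart and in no other tissue.

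**Figure D3:**
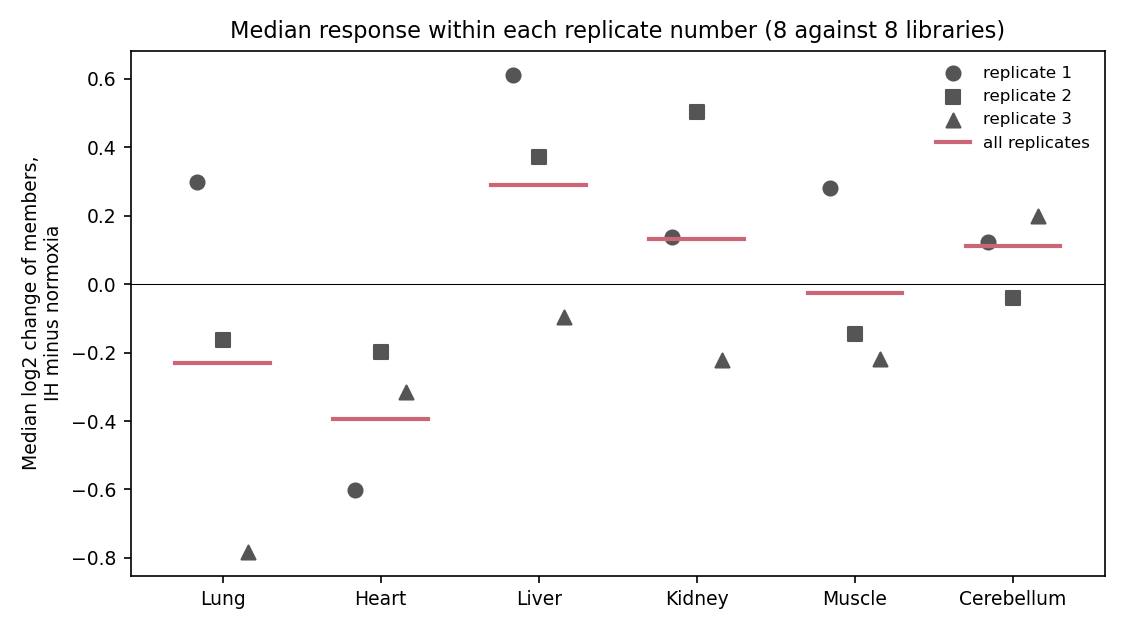
Median log2 change, IH minus normoxia, of the ribosomal protein genes within replicates 1, 2 and 3 (symbols, 8 against 8 libraries each) and over all replicates (red line), by tissue. Lung runs from 0.30 to -0.78, and only in heart are all 3 symbols on 1 side of 0.

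A test of whether the response differed between replicate numbers, added after the values above had been seen, called 76 of 79 genes in lung (96.2%; 50.2% of all genes), 65 in kidney (82.3%; 26.4%), 47 in liver (59.5%; 17%) and 53 of 80 in muscle (66.3%; 9.14%), at an adjusted p of at most 0.05 by limma. It called 0 in heart (0%) and 0 in cerebellum (3.67%). Single genes show the same. In lung Rplp2 had IH medians of 1343, 1156 and 762 TPM in replicates 1, 2 and 3 where normoxia had 933, 1061 and 1215 TPM. The IH values of replicate 3 (722 to 826 TPM) lay below all of its normoxia values (1116 to 1595 TPM), while the median of replicate 1 went up. In liver Rps24 had IH medians of 1317, 946 and 571 TPM against 625, 562 and 684 TPM. In kidney Rpl41 had 3243, 5194 and 2910 TPM against 3146, 2368 and 2942 TPM, so its rise lay in replicate 2. By contrast Rpl5 in heart had 10.9, 14.6 and 15.3 TPM after IH and 21.8, 25.6 and 16.9 TPM in normoxia. Genes detected in the lung after IH averaged 26099, 26123 and 24143 in the 3 numbers. Its part in these differences was not tested.

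**Figure D4:**
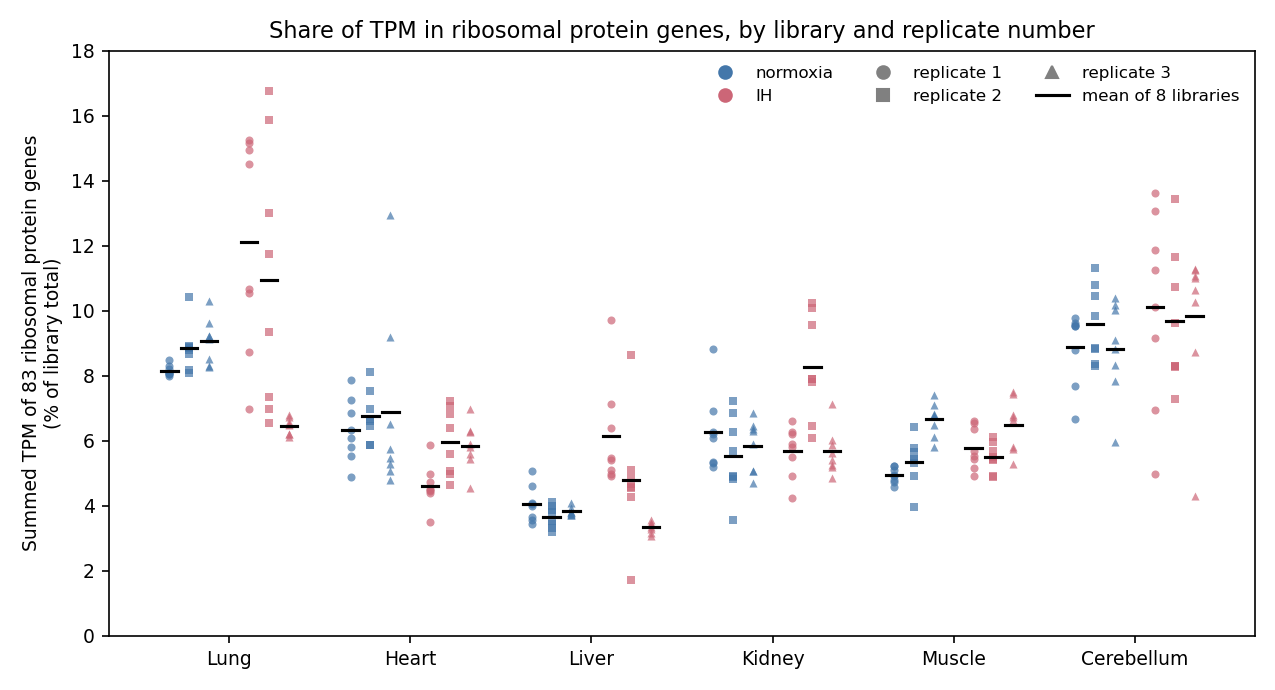
Summed TPM of the 83 ribosomal protein genes as a percent of the library total, for each of 288 libraries, by tissue, treatment (color) and replicate number (symbol); black bars are means of 8 libraries. In lung after IH replicate 3 lies between 6.10% and 6.78% while single libraries of the other replicates reach 16.7%.

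The response of lung was set against that of each other tissue by an interaction term (limma, the lung libraries shared by all 5 tests). Against liver 0 genes were higher and 70 lower in lung (88.6%; background 19.6% and 33%), against kidney 0 and 51 (64.6%; 24% and 39.2%), against cerebellum 0 and 36 (45.6%; 19.4% and 30.4%), and against muscle 1 and 19 (24.1%; 20.4% and 36.3%). Against heart 8 were higher and 1 lower in lung (21.7% and 43.5%). The 9 included Rpl5 and Rps12, which fell in heart, and Rps4l, lower in lung. Median differences were -0.51, -0.36, -0.30, -0.20 and 0.13 on the log2 scale. These counts rest on the scaling. With TPM as deposited they were 3 against liver, 6 against kidney, 5 against cerebellum, 3 against muscle and 40 against heart (39 of them higher in lung), with medians of -0.08, -0.01, 0.01, 0.01 and 0.31. Organs came from 3 mice per time and treatment, so libraries of different tissues may share mice. With same-numbered libraries of both tissues as a block the counts were 75, 58, 39, 21 and 9.

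The other genes of the pathway gave these counts at the same threshold. Of all genes, 28% were higher and 17.3% lower in heart, 28.9% and 41.5% in lung, and 10.9% and 13.3% in liver. Of the 8 other ribosomal proteins and fusions (among them Rack1, Fau and Rps3a1), 5 were lower in heart and 1 higher, 5 were lower in lung, and 3 were higher in liver, with medians of -0.32, -0.30 and 0.24. Of 17 translation factors with TOP mRNAs, 7 were lower and 1 higher in heart (median -0.14), 12 lower in lung (-0.24), and 3 higher and 1 lower in liver (0.12). Eef1a1, the elongation factor that delivers aminoacyl-tRNA, did not pass in heart (-0.04 ± 0.08) nor in lung (-0.10 ± 0.08), while Tpt1, also a TOP mRNA, fell in both (-0.40 ± 0.11 and -0.47 ± 0.10). Of 40 ribosome biogenesis factors, 11 were higher and 5 lower in heart (median 0.04, where 28% and 17.3% of all genes were called), 4 higher and 30 lower in lung (-0.26), and 2 higher and 16 lower in liver (-0.20). Ncl, the nucleolar protein nucleolin, fell by 0.73 ± 0.10 in liver (adjusted p = 1.07e-06). Of 20 regulators of mTORC1 and TOP translation, 8 were higher and 2 lower in heart, 3 higher and 9 lower in lung, and 3 higher and 6 lower in liver. Larp1, which binds the TOP tract, was 0.22 ± 0.05 higher in heart and 0.52 ± 0.12 lower in liver. Mitochondrial ribosomal proteins, 78 genes, had 31 lower and 6 higher in heart (median -0.10), 71 lower in lung (-0.36) and 8 higher and 3 lower in liver (0.09).

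Rhythms over 24 hours were tested by a cosine fit in each tissue and treatment. In kidney under normoxia 34 of 79 genes (43.0%) passed, against 21% of all genes, and after IH 0 passed (5.74% of all genes) and 0 had an unadjusted p of at most 0.05. The fitted peaks of the 34 lay between 14:44 and 18:06 with a median of 16:55, and peak-to-trough folds between 1.23 and 1.61. Rpl30, with the lowest p, had means of 397, 457, 434, 511, 540, 573, 625 and 559 TPM from 1:30 to 22:30 (n = 3 each; adjusted p = 0.00825, limma), lowest at 1:30 and highest at 19:30. Rps23 had 142, 178, 156, 217, 221, 258, 277 and 212 TPM over the same times (adjusted p = 0.0119), though 85.9% of the TPM of Rps23 and its pseudogenes lay in pseudogene rows in kidney. After IH the means of Rpl30 stayed between 459 and 529 TPM. The share of TPM in the group was 4.53% at 1:30, 6.81% at 16:30 and 6.84% at 19:30 in normoxia. At 19:30 the 3 libraries spread from 4.83% to 8.84%, more than at any other time of normoxia. The calls depended on the test: time as a factor of 8 levels gave 0, a rank test (JTK) on TPM gave 24, and leaving out replicate 1 left 1 gene.

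**Figure D5:**
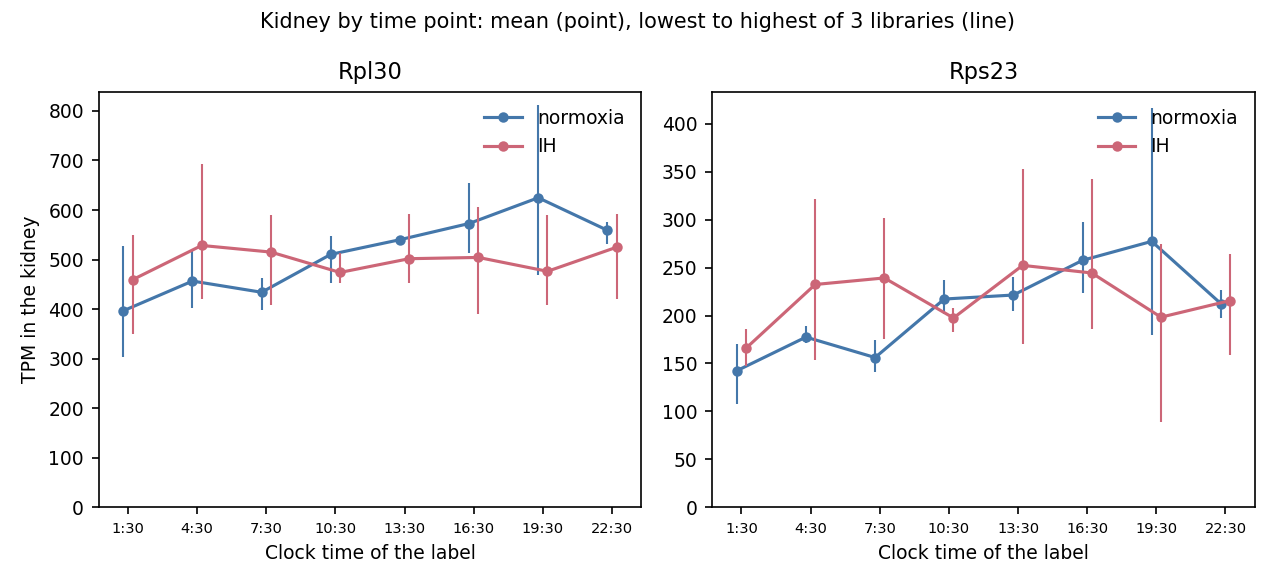
Level in TPM of Rpl30 and Rps23 in kidney at 8 clock times in normoxia (blue) and after IH (red); points are means and lines run from the lowest to the highest of 3 libraries. Normoxia means climb from 1:30 (397 and 142 TPM) to 19:30 (625 and 277 TPM).

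The rhythms of kidney were not shown to differ between treatments: the test of that difference called 0 genes in every tissue (0% of all genes), with 4 at an unadjusted p of at most 0.05 in kidney. Elsewhere 1 gene passed, Rpl3 in muscle after IH (8.83% of all genes passed; adjusted p = 0.0186, limma, fitted peak-to-trough fold 1.32), with a mean of 265 TPM at 16:30, where 1 library had 347 TPM, and 188 TPM at 1:30. JTK and time as a factor gave 0 there. No gene passed in muscle under normoxia (6.38% of all genes), lung (9.15% in normoxia and 4.65% after IH), heart (0.626% and 4.17%), liver (17.7% and 2.63%) or cerebellum (0% and 0.0134%), by limma, JTK or time as a factor, and 0 to 7 genes per group had an unadjusted p of at most 0.05 there.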

How the data were processed

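Per the labels and the methods of the study, the authors sequenced poly(A) RNA, quantified reads with kallisto against Ensembl transcripts (mm10) and deposited TPM per gene, 1 column per library; totals ran from 989211 to 999188 TPM. The methods give reads only as a minimum and a median over libraries, not per library. Counts were not used here, so limma replaced the study's count model. Libraries of a tissue were divided by median-ratio factors, genes averaging 1 TPM or more kept, and log2(TPM + 0.5) tested with limma 3.58.1 (trend, R 4.3.3; Benjamini-Hochberg over all genes, threshold 0.05), so fold changes of low genes are understated. Rhythm was a 24-hour cosine F test. Tools were tested on simulated data. Members and lists were chosen with earlier results of these data known. Named genes are the 2 largest rises and falls per tissue, the 2 lowest rhythm p, highest and lowest levels, copies, stalk and reference genes, Rpl5, Rpl11, Rps6, Rps19 and Rpsa; Rpl38, Larp1, Ncl, Tpt1 and Eef1a1 were chosen after their values were seen. Some genes are not reported here by name. Per the methods, organs came from 3 mice per time and treatment, so tissues may share mice; what a replicate number stands for is not given in the sources used here. No 2 libraries were identical. Positions and transcript lengths are from GENCODE M21.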

Additional observations from a re-analysis of the deposited data

Results flagged for a closer look

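The response of the genes to IH differed between lung and the other tissues by the interaction test (limma, adjusted p at most 0.05). The counts were 70 genes against liver, 51 against kidney, 36 against cerebellum, 20 against muscle and 9 against heart. Of all genes, 19.6% were higher and 33% lower in lung against liver, with 24% and 39.2% against kidney. These shares were 19.4% and 30.4% against cerebellum, 20.4% and 36.3% against muscle, and 21.7% and 43.5% against heart. Against muscle and heart the genes were below the shares in both directions. With TPM as deposited the counts of the genes were 3, 6, 5, 3 and 40, so their order depends on the scaling. Within tissues the response differed between replicate numbers for 76 genes in lung (50.2% of all genes), 65 in kidney (26.4%), 53 in muscle (9.14%) and 47 in liver (17%). Both are values of the report listed for a second look, and causes were not tested.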

How the results depend on the processing

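The tables hold no counts, so the reads behind single values are not known from them, and the number of libraries limits precision. The p-values of IH against normoxia measure the spread between libraries of this study. That spread mixes mice, clock times and replicate numbers, since treatment was the only term. Counts under changed settings, here and above, are of the ribosomal protein genes alone. The shares of all genes called under the same settings are not given. The counts therefore do not show a change particular to these genes. The pseudocount changed no count of genes called after IH. With TPM as deposited, the genes called after IH were 8 in lung (median log2 change 0.0745, reversed), 14 in liver, 4 in kidney and 7 in muscle; lung against the others gave 40 (heart), 3 (liver), 6 (kidney), 3 (muscle) and 5 (cerebellum); 2-fold tissue differences gave 1 in heart, 20 in liver and 14 in cerebellum; and rhythm 53 in kidney normoxia and 0 in muscle IH. With genes detected as a term the calls were 76 in lung (median -0.93), 0 in heart (median 0.0869, reversed), 53 in liver, 2 in kidney and 2 in muscle. In heart that number did not overlap between treatments, so the fit there cannot separate it from treatment. With the same term lung against the others gave 73 (heart), 77 (kidney), 76 (muscle) and 72 (cerebellum). Without a filter liver had 14, kidney 6 and cerebellum 3; with a mean of at least 5 TPM muscle had 1. Length and GC correction gave 1 in muscle and 9 in cerebellum, added pseudogene rows 8 in cerebellum, and dropping each tissue's least correlated library 40 in liver and 9 in cerebellum (40 also without the liver library with heart transcripts). With the replicate number as a term liver had 53 and muscle 2. Rhythm with time as a factor gave 0 in kidney normoxia and 0 in muscle IH, and the rank test 0 in muscle IH.

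Same-numbered libraries of the 2 treatments deviated together to differing degrees. In lung 6 of 24 pairs had r over 0.1 (median 0.00273), and in liver 22 of 24 had (median 0.32). Such libraries also share a clock time, which was not removed, so r cannot separate a pairing from a shared time of day. The main test did not take numbers as pairs, which matters most in liver. With the replicate block liver had 41 calls (26 without it) and muscle 1 (0 without it), and heart 73 as without it. Leaving out 1 replicate each, calls ran from 7 to 74 in lung (median -0.48 to 0.055), 34 to 73 in heart, 0 to 62 in liver, 0 to 48 in kidney (median -0.0466 to 0.33), 0 to 3 in muscle and 0 to 15 in cerebellum. Rhythm in kidney normoxia ran from 1 to 22 and in muscle IH stayed 0. Lung against heart ran from 8 to 54, against liver 39 to 71, kidney 13 to 72, muscle 5 to 23 and cerebellum 17 to 60, and 2-fold differences of muscle 2 to 4. The causes were not tested.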
